A study of Mus musculus with 238 samples.

Results

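Rbm3 and Cirbp, the 2 cold-inducible RNA-binding proteins of the mouse, and Rbm3os, an antisense transcript of the Rbm3 locus, were followed through every library of a bulk RNA sequencing study of ageing mouse brain. The 3 genes were taken by symbol from the 21076 gene rows of the count table, and each had 1 row. They were chosen by the counts of these same brain libraries, namely by their change with dietary restriction. That contrast is therefore described by values and counts, from which nothing is inferred and for which no p is given. Tests are used for liver, for the plasma experiment and for differences between regions of control mice.

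RBM3 and CIRBP are small, closely related proteins with a single RNA recognition motif and a glycine-rich tail. They bind messenger RNAs and act on their stability, translation and splicing. Their RNAs rise when cells or animals are cooled mildly and fall with warming, the opposite of most heat shock genes. In brain, RBM3 is known for preserving synapses after cooling, and CIRBP for binding transcripts of circadian clock genes.

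The mice were C57BL/6JN, 19 months old, and each took part in 1 of 2 experiments. Females of the diet experiment were fed freely (AL, 4 mice) or were dietary restricted (aDR, 5 mice). Livers of the restricted mice are labelled DR. Males of the plasma experiment received retro-orbital plasma of young mice (YMP, 3 mice) or the saline PBS (4 mice). Up to 15 brain regions were taken from each mouse, and liver from the diet mice alone, which gave 238 libraries. All 9 diet mice are female and all 7 plasma mice male, so sex and experiment cannot be told apart. The labels do not give the restriction protocol, the hour of sampling or body temperature. Libraries of a group come from separate mice per the mouse numbers in the labels, and regions of 1 mouse are not independent.

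In the GENCODE M21 annotation of GRCm38, Rbm3 (ENSMUSG00000031167.16) lies on the minus strand at chrX:8138975-8145880 with 11 transcripts. Rbm3os (ENSMUSG00000055188.12, an antisense RNA with 2 transcripts) starts inside it on the plus strand, at chrX:8145429-8147964. Cirbp (ENSMUSG00000045193.13, 7 transcripts) lies on the plus strand at chr10:80165985-80172786. The bodies of Rbm3 and Rbm3os overlap over 452 bases, of which 94 are exonic in both, or 9.68% of the exonic bases of Rbm3os. The libraries carry no strand, so reads from those shared bases cannot be assigned to either gene, and every value of Rbm3os is uncertain for that reason.

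The start regions of Cirbp and Rbm3os are shown because both hold the letters TCCCCGCC, known from Cirbp as a mild-cold response element. They were read from RefSeq promoter windows of 300 bases (GRCm38.p6, plus strand, 5′ to 3′) and printed up to the base before the first annotated exon inside the window. The table matched Cirbp (2 windows), Rbm3os (1 window) and Rbm3 (0 windows), so the start region of Rbm3 was not searched. The other Cirbp window, from chr10:80167921, held 0 copies of TCCCCGCC and is not printed. Capitals mark TCCCCGCC and, in Rbm3os, the E-box CACGTG, the letters bound by clock transcription factors.
Cirbp, chr10:80167589-80167777: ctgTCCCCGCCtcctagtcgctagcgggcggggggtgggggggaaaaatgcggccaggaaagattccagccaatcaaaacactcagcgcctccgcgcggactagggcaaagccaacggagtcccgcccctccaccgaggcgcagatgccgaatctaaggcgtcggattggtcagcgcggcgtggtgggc
Rbm3os, chrX:8145177-8145428: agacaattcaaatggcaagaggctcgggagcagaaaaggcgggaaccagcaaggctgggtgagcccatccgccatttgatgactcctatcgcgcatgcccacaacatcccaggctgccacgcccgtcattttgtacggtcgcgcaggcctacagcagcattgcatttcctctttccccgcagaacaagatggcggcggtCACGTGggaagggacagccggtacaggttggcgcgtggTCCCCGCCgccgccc
The element begins 247 bases before the annotated start in this Cirbp window and 13 bases before that of Rbm3os. The Rbm3os window lies within Rbm3, in an intron. Searched on both strands of 32851 such windows, TCCCCGCC was present in 5.38% and CACGTG in 7.15%. The GC box GGGCGG, which shares letters with many such runs, was present in 35.7% of windows, in 3 copies in this Cirbp window, 4 in the other and 1 in that of Rbm3os. The heat shock element core GAANNTTC was present in 7.86% of all windows and not in these letters. These are matches of letters, not measured binding sites.

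The 238 libraries held between 0.606 and 32.4 M counts each (median 8.44 M, where M stands for 1000000), and 6 held under 2 M. A library held 64 to 2375 counts of Rbm3 (median 666.5), 80 to 4098 of Cirbp (median 1063) and 5 to 124 of Rbm3os (median 36). Levels below are counts per 1000000 counts of the library (CPM), and changes are log2 differences from fits with TMM scaling. All 3 genes passed the filter on low counts in each of the 31 comparisons. Marker lists of the tissues were ranked by their mean in freely fed mice. The labelled tissue ranked highest of the tissues for its own marker list in the choroid plexus, liver, cerebellum, caudate putamen, olfactory bulb, hypothalamus, thalamus, motor cortex, anterior hippocampus and medulla. The corpus callosum ranked 3 for oligodendrocyte markers (pons highest), the SVZ 2 for its list (olfactory bulb highest) and the entorhinal cortex 4 for cortex markers. In the pons library of restricted mouse 67, 10 genes held 23.4% of counts, against 5.72 to 7.12% in the other diet pons libraries. In bulk tissue, fewer cells of a type and less RNA per cell cannot be told apart.

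Rbm3 and Cirbp were higher in restricted than in freely fed mice in 15 of 15 brain regions each, and so was Rbm3os. The Rbm3 log2 change ran from 0.40 in olfactory bulb to 0.92 in pons, with a median of 0.70, and the ratio of group means from 1.31 to 1.81. For Cirbp the log2 change ran from 0.25 in olfactory bulb to 0.96 in caudate putamen (median 0.63). For Rbm3os it ran from 0.33 in anterior hippocampus to 1.01 in hypothalamus (median 0.72). All restricted mice lay above all freely fed mice in 14 regions for Rbm3, 14 for Cirbp and 11 for Rbm3os, where 1.39% of all gene and region pairs did so. With a call defined as an edgeR adjusted p under 0.05 over all genes of a region, Rbm3 was called in 6 regions, Cirbp in 2 and Rbm3os in 0. Those counts moved with the settings: with any 1 mouse left out Rbm3 was called in 2 to 4 regions, and DESeq2 called Rbm3 in 13, Cirbp in 13 and Rbm3os in 1. Over all genes, edgeR called 0.0369% of gene and region pairs higher, and the share called by DESeq2 was not counted. Since this contrast chose the genes, nothing is read from those counts and shares.

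**Figure D1:**
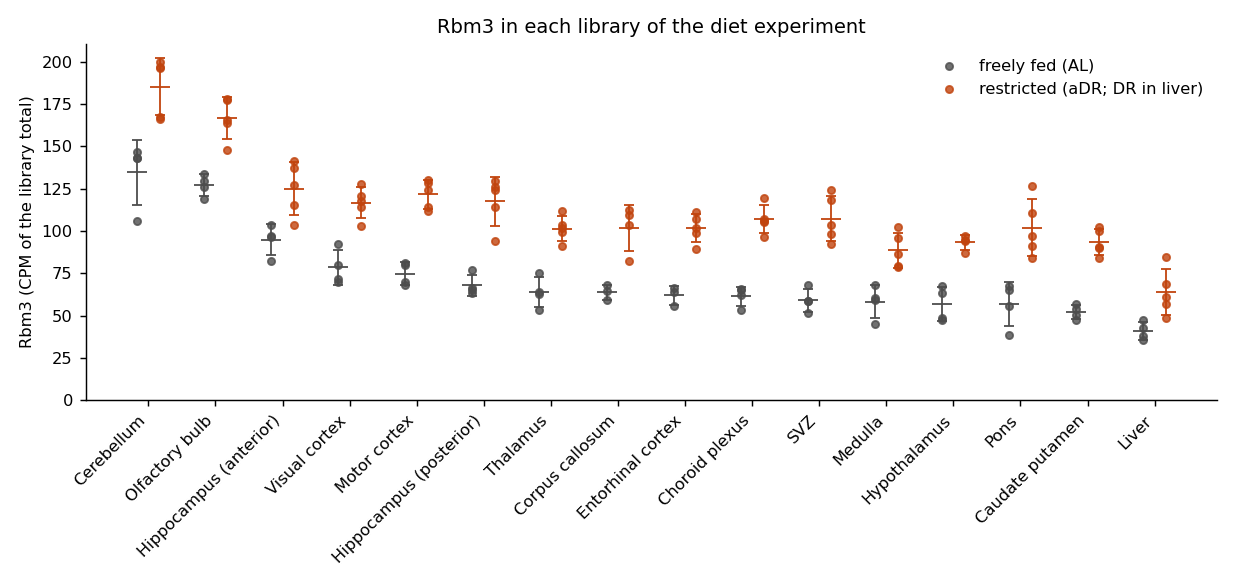
Rbm3 level (CPM, vertical axis) in each library of the diet experiment by tissue, ordered by the mean of freely fed mice, with group means and SD (bars). The restricted mice lie above the freely fed mice in every tissue but the anterior hippocampus, where the lowest restricted and the highest freely fed mouse are level.

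The caudate putamen had the lowest Rbm3 of the freely fed brain and a large log2 change. Its 4 freely fed mice were at 47.2, 50.4, 53.7 and 56.9 CPM and its 5 restricted mice at 84.0, 89.9, 90.3, 99.8 and 102 CPM. The groups lay far apart, at 52.1 ± 4.18 (SD, n = 4) and 93.3 ± 7.60 CPM (SD, n = 5), with a log2 difference of 0.89 (SE 0.099). In SVZ the freely fed mice were at 51.4, 58.4, 58.9 and 67.9 CPM and the restricted mice at 92.1, 98.4, 104, 118 and 124 CPM, again without overlap. In pons, with the largest log2 change (SE 0.21), freely fed mice were at 38.8, 55.4, 65.4 and 67.4 CPM and restricted mice at 84.2, 90.8, 97.2, 110 and 126 CPM. The highest pons value belongs to the library of mouse 67 with the concentrated counts named above.

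The regions richest in Rbm3 showed smaller log2 changes. For cerebellum this holds for ratios and not for CPM: its means were 135 and 185 CPM, against 52.1 and 93.3 CPM in caudate putamen. The means were 127 and 166 CPM in olfactory bulb and 94.9 and 125 CPM in anterior hippocampus. In CPM, too, those rises were no larger than that of caudate putamen. In olfactory bulb the freely fed mice were at 119, 126, 130 and 134 CPM and the restricted mice at 148, 164, 165, 177 and 178 CPM. In cerebellum they were at 106, 143, 143 and 147 against 166, 167, 196, 196 and 199 CPM (log2 change 0.47, SE 0.098). Both regions kept the groups apart with ratios of 1.31 and 1.37. The anterior hippocampus was the 1 region with overlap, and only just: the lowest restricted mouse was at 103.5 and the highest freely fed mouse at 103.6 CPM. The remaining restricted mice there were at 115, 127, 137 and 142 CPM, and the remaining freely fed mice at 82.3, 96.5 and 97.0 CPM.

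Cirbp followed the same groups. Its smallest log2 change was in olfactory bulb, as for Rbm3, and its largest in caudate putamen, where that of Rbm3 was in pons. In caudate putamen the freely fed mice were at 85.0, 95.9, 113 and 125 CPM and the restricted mice at 146, 169, 193, 204 and 260 CPM, a ratio of 1.86 with a wide spread among restricted mice. In thalamus, next in size (log2 change 0.83, SE 0.12), they were at 106, 124, 127 and 138 against 187, 190, 211, 239 and 248 CPM. In hypothalamus, one of the regions richest in Cirbp, the mice were at 181, 187, 195 and 211 CPM in freely fed and 261, 264, 267 and 314 CPM in restricted mice. The olfactory bulb was the 1 region in which Cirbp overlapped, with 188, 193, 196 and 212 CPM in freely fed against 198, 219, 235, 254 and 265 CPM in restricted mice.

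**Figure D2:**
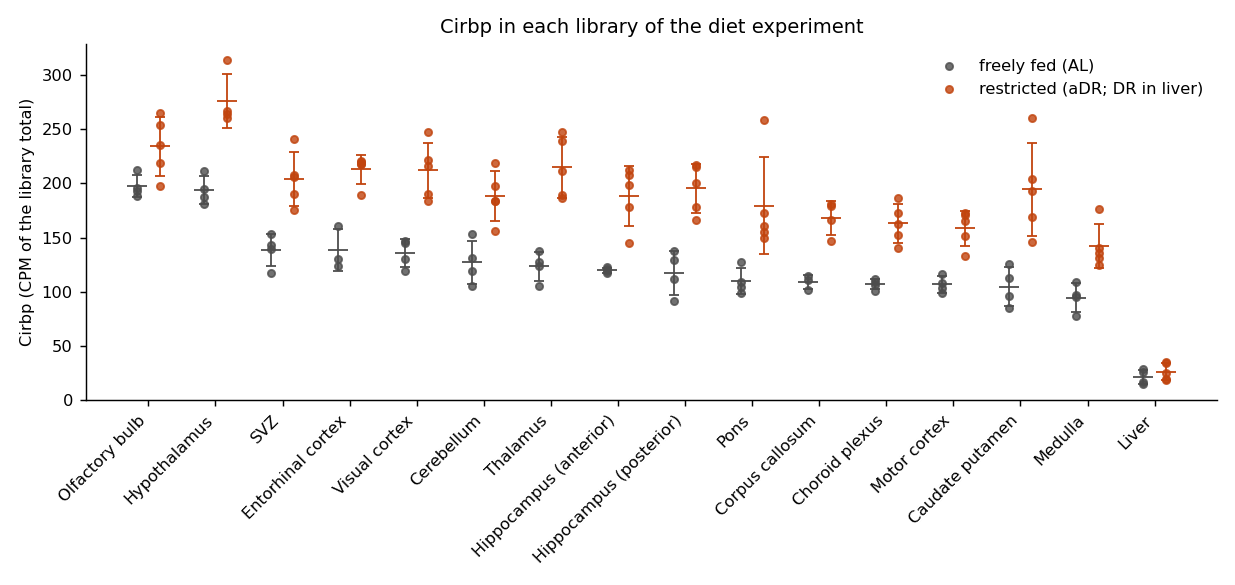
Cirbp level (CPM, vertical axis) in each library of the diet experiment by tissue, ordered by the mean of freely fed mice, with group means and SD (bars). The groups overlap in olfactory bulb and liver and lie apart in the other 14 tissues.

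Rbm3os had far fewer reads and was higher in the same mice. In hypothalamus its freely fed mice were at 1.87, 2.29, 2.39 and 2.75 CPM and its restricted mice at 3.86, 4.57, 4.60 and 5.82 CPM, a ratio of 2.03. In choroid plexus they were at 2.80, 2.83, 3.12 and 3.50 against 5.74, 5.76, 5.79, 6.11 and 6.74 CPM. It overlapped between the groups in anterior hippocampus, medulla, pons and visual cortex. Summed over a mouse's brain libraries, Rbm3os gave 5.44 ± 0.335 reads per 100 Rbm3 reads in freely fed (SD, n = 4) and 5.38 ± 0.141 in restricted mice (SD, n = 5), so the difference of the means was smaller than the spread between mice.

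With each mouse reduced to 1 value over its brain regions (log2 CPM after region levels are taken off), the groups lay apart for all 3 genes. For Rbm3 the freely fed mice were at -0.56, -0.41, -0.30 and -0.27 and the restricted mice at 0.18, 0.26, 0.30, 0.37 and 0.42. For Cirbp they were at -0.48, -0.39, -0.34 and -0.21 against 0.11, 0.30, 0.31, 0.34 and 0.36. The lowest restricted value of both genes was mouse 67, which was the lowest of its group in 10 of 15 regions for each. Mouse 68 was the lowest freely fed mouse, in 7 of 13 regions for Rbm3 and 9 of 13 for Cirbp. The group differences were 0.69 (SE 0.069) for Rbm3, 0.64 (SE 0.065) for Cirbp and 0.64 (SE 0.056) for Rbm3os, beside a median of -0.0062 over 15616 genes. By limma, 0.922% of genes were called in this comparison, and 4.16% had all restricted above all freely fed mice. The 3 genes were among them, as the choice of genes fixes.

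**Figure D3:**
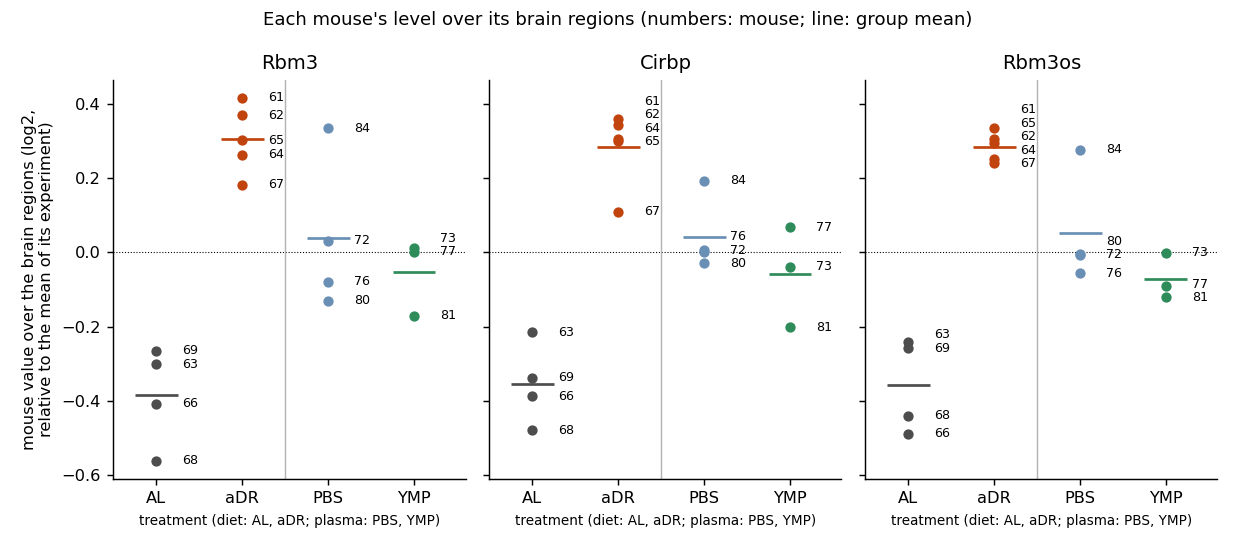
Level of each gene in each mouse over its brain regions (log2 relative to the mean of its experiment, vertical axis) by treatment, with the mouse number and a line at the group mean. Freely fed and restricted mice lie apart for all 3 genes, and among plasma mice PBS mouse 84 lies highest.

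The regions with low Rbm3 showed the larger log2 changes. To keep level and change in different mice, the mean level of each region in the PBS mice was set against the diet log2 change. Over the 15 regions Pearson's r was -0.75 for Rbm3, -0.59 for Cirbp and -0.66 for Rbm3os (Spearman's rho -0.64, -0.41 and -0.71). The points share mice and libraries within each experiment and are not independent. The diet changes of Rbm3 and Cirbp themselves had r 0.57 (rho 0.40) over the regions, with both genes read from the same libraries.

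Other genes of cold, heat and clock responses were read from lists, each beside the members' shift of about 0.7. The first list held cold shock domain proteins, RNA-binding proteins related to RBM3 or CIRBP, and Rtn3 and Ntrk2. Of its 12 genes, 0 were called by limma in restricted brains (median log2 change 0.0085). The largest were Ybx2, a cold shock domain protein, at -0.17 (SE 0.11, adjusted p 0.484) and Carhsp1, another one, at 0.15 (SE 0.049, adjusted p 0.176). Of 17 splicing kinases and factors of temperature-dependent splicing, 0 were called (median -0.015). Srsf2, a splicing factor, was at 0.15 (SE 0.037, adjusted p 0.101) and Hnrnph1, an RNA-binding splicing regulator, at -0.15 (SE 0.032, adjusted p 0.0765). Over all genes, 82 were called higher and 62 lower.

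Of 21 heat shock response genes, 0 were called higher and 1 lower (median -0.036). It was Chordc1, a partner of HSP90, at -0.32 (SE 0.051, adjusted p 0.0311). The inducible chaperones Hspa1a and Hspa1b were at -0.038 (SE 0.049, adjusted p 0.760) and 0.0073 (SE 0.097, adjusted p 0.983). The 19 circadian clock genes had 6 called higher and 2 lower (median 0.14). The 4 with the largest change were Ciart, a repressor of the clock, at 0.76 (adjusted p 8.79e-05), the period gene Per2 at 0.42 (adjusted p 0.0332), the output factor Dbp at 0.37 (adjusted p 0.0164) and the cryptochrome Cry1 at 0.37 (adjusted p 0.0131). The other 11 clock genes were not called. The part of the 8 called ones in the Rbm3 and Cirbp values was not tested.

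Marker lists of other cells were read the same way. Neuron, astrocyte, microglia and oligodendrocyte markers (4 genes each) had 0 called, with medians between -0.054 and 0.030. Of 4 endothelial markers, 2 were called lower, Cldn5 at -0.48 (adjusted p 0.0402) and Flt1 at -0.26 (adjusted p 0.0382), with a list median of -0.26. Pecam1 at -0.26 (adjusted p 0.109) and Ly6c1 at 0.020 (adjusted p 0.947) were not called by limma. The 5 blood genes had a median of 0.93 and 0 called, and outside the choroid plexus their summed level ran from 0.834 to 63.6 CPM in freely fed and from 1.48 to 155 CPM in restricted mice. The 4 choroid plexus markers had a median of 0.21 and 0 called. Outside the choroid plexus libraries their sum ran from 0.590 to 11249.5 CPM in freely fed mice (median 8.82). In restricted mice it ran there from 0.711 to 11252.6 CPM (median 9.57). In the choroid plexus libraries it ran from 659 to 8826 CPM in freely fed and from 877 to 7240 CPM in restricted mice. The summed endothelial markers ran from 86.9 to 223 CPM in freely fed and from 60.4 to 196 CPM in restricted mice. The part of these shifts in the Rbm3 and Cirbp values was not tested.

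Over the 131 diet brain libraries, with region means taken off, the gene most like Rbm3 was Cirbp (Pearson's r 0.87), and the gene most like Cirbp was Rbm3, among 10649 genes with a mean of at least 10 CPM. For Rbm3 the next were Ciart (0.79), the deubiquitinase Usp2 (0.76), Srsf2 (0.67) and Cdk5rap3 (0.64). For Cirbp they were Ciart (0.82), Dbp (0.73), Tspan4 (0.70) and Zdhhc4 (0.69). These libraries hold the diet difference that chose the genes, and share mice. With the treatment means taken off as well, the r of Rbm3 and Cirbp fell to 0.42 in the diet libraries, and it was 0.31 in the 98 plasma libraries.

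Liver was not used to choose the genes, although it came from the same mice. Rbm3 was at 35.6, 37.9, 42.8 and 47.2 CPM in freely fed and at 48.6, 57.0, 61.0, 68.6 and 84.5 CPM in restricted livers, with no overlap. The log2 change was 0.69 (SE 0.16, 95% interval 0.33 to 1.04), close to the brain value of 0.69. It did not pass the edgeR threshold over 11815 genes (adjusted p 0.133), where 0.22% of genes were called. DESeq2 called it (adjusted p 0.0105), and the share of all genes called by DESeq2 was not counted. An exact permutation test of Rbm3 alone, two-sided over 126 splits of the 9 mice, gave p 0.0159, and 1.55% of genes had all restricted above all freely fed livers.

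Cirbp did not separate the livers. It was at 15.5, 16.9, 25.6 and 29.0 CPM in freely fed and at 18.3, 19.2, 25.3, 34.3 and 35.4 CPM in restricted mice. The log2 change was 0.31 (SE 0.26, 95% interval -0.25 to 0.87, edgeR adjusted p 0.825, exact permutation p 0.381), an interval that holds both 0 and the change seen over the brain. Rbm3os was at 1.09, 1.33, 1.90 and 2.22 against 2.30, 2.31, 2.56, 2.66 and 4.28 CPM, a log2 change of 0.75 (SE 0.29, 95% interval 0.11 to 1.40). Its edgeR adjusted p was 0.435, and its exact permutation p of 0.00794 is the smallest that 126 splits allow. Of 17 clock genes tested in liver, 2 were called higher by edgeR and 1 lower (median 0.46), and their part in the liver values was not tested. The 10 cold shock and related genes, the 17 splicing genes and the 20 heat shock genes tested there had 0 called, with medians of -0.046, 0.22 and 0.014. The 5 blood genes had a median of -0.84 in liver and 0 called.

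The plasma experiment asked the same of young plasma in other mice. Over the brain, none of the 3 genes changed detectably with young plasma by limma on 1 value per mouse. Rbm3 differed by -0.091 (SE 0.12, 95% interval -0.36 to 0.18, adjusted p 0.852) and Cirbp by -0.10 (SE 0.082, interval -0.29 to 0.092, adjusted p 0.782). Rbm3os differed by -0.12 (SE 0.086, interval -0.33 to 0.079, adjusted p 0.739). The intervals hold decreases as well as no change, and their upper ends lie below the diet differences of 0.64 to 0.69. The difference between the experiments was not tested. Of 15768 genes, 0% were called here.

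The PBS mice did not sit together. For Rbm3 they were at -0.13, -0.079, 0.031 and 0.34, and the YMP mice at -0.17, 0.0024 and 0.011. The highest was PBS mouse 84, which held the highest Rbm3 of its group in 13 of 15 regions, the highest Cirbp in 12 and the highest Rbm3os in 11. Without it the Rbm3 difference over the brain was 0.0051. YMP mouse 81 was the lowest of its group in 12 of 15 regions for Rbm3 and 10 for Cirbp. For Cirbp the PBS mice were at -0.030, 0.0012, 0.0070 and 0.19, and the YMP mice at -0.20, -0.038 and 0.068. The groups overlapped for all 3 genes, where 10.1% of all genes did not overlap.

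By region, Rbm3 was lower with young plasma in 13 of 15 regions, Cirbp in 12 and Rbm3os in 14, and 0 were called by edgeR for any of them. At an unadjusted p under 0.05 there were 1, 2 and 0 regions, and the lowest adjusted p values were 0.429, 0.456 and 0.656. DESeq2 also called 0. Over all genes, 0.0127% of gene and region pairs were called. The regions share mice, so their common sign is not 15 separate results, and without mouse 84 Rbm3 was higher in 10 regions, Cirbp in 6 and Rbm3os in 5.

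The cerebellum had the smallest unadjusted p for both coding genes. Rbm3 there was at 126, 126 and 153 CPM in PBS and at 89.2, 108 and 117 CPM in YMP mice, and the log2 difference was -0.36 (SE 0.12, adjusted p 0.429 by edgeR). Cirbp was at 121, 123 and 127 against 89.2, 109 and 114 CPM (log2 change -0.24, SE 0.095, adjusted p 0.456). The groups did not overlap for either gene, and 9.23% of all gene and region pairs did not. In corpus callosum, with 3 PBS and 2 YMP mice, Rbm3 was at 49.4, 56.3 and 75.1 against 41.2 and 48.6 CPM (log2 change -0.44, SE 0.21, adjusted p 0.685).

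Whether the plasma difference varied between regions was tested with the region by treatment terms of an edgeR fit over the 98 libraries. That fit had no term for the mouse. F was 0.49 for Rbm3, 0.73 for Cirbp and 0.55 for Rbm3os, each with an adjusted p of 1, where 0.824% of genes were called. The cold shock, splicing, heat shock and clock lists had 0 called with young plasma by limma (medians 0.010, 0.022, 0.10 and -0.0016 beside -0.0037 over all genes). Marker lists of neurons, astrocytes, microglia, oligodendrocytes, endothelial cells and blood had 0 called (medians 0.073, -0.12, -0.032, -0.14, -0.0044 and -0.32). The 4 choroid plexus markers had a median of -1.35 and 0 called, and in the choroid plexus libraries their summed level ran from 7913 to 10261 CPM in PBS and from 148 to 15252 CPM in YMP mice. Outside those libraries their sum ran from 1.15 to 19615 CPM in PBS (median 11.3) and from 0.741 to 407 CPM in YMP mice (median 7.82), and the part of that in the values of the 3 genes was not tested. Without the choroid plexus libraries, which leaves these other libraries in, the plasma differences kept their sign and stayed uncalled for all 3 genes.

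**Figure D4:**
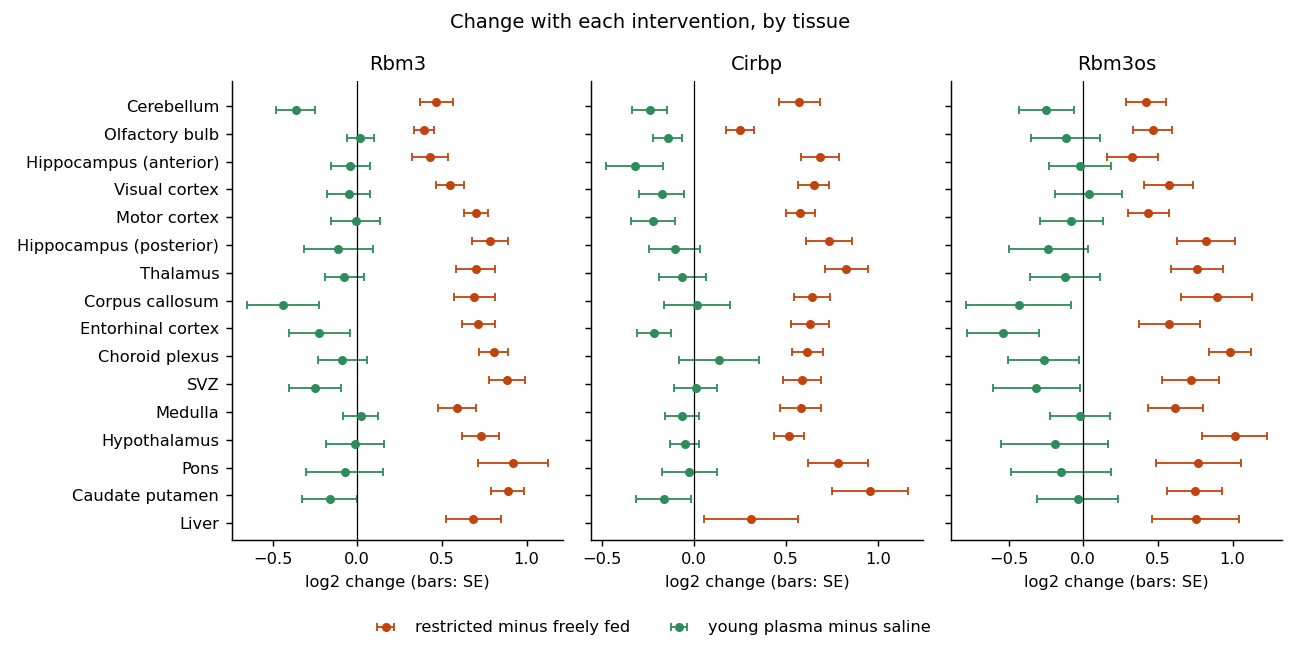
Log2 change (horizontal axis, bars are SE) of each gene with dietary restriction and with young plasma, by tissue, ordered by Rbm3 in freely fed mice with liver at the bottom. The restriction values lie to the right of 0 in all 16 tissues, and the plasma values lie at or to the left of 0 in most of 15 regions.

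Over the 7 plasma mice, the mouse values of the genes moved together. Pearson's r of Rbm3 and Cirbp was 0.86 (exact permutation p 0.0208, two-sided, 0.0354 adjusted over the 3 pairs) and Spearman's rho 0.61 (exact permutation p 0.167, 0.25 adjusted). For Rbm3 and Rbm3os r was 0.90 (exact permutation p 0.0236, 0.0354 adjusted) and rho 0.68 (exact permutation p 0.110, 0.25 adjusted). For Cirbp and Rbm3os r was 0.77 (exact permutation p 0.0831, also after adjustment) and rho 0.29 (exact permutation p 0.556). Without mice 81 and 84, the r values were 0.29, -0.060 and -0.91, so the positive relations rest on those mice.

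Over single plasma libraries, with region by treatment means taken off, the 5 genes most like Rbm3 were Kif5c (0.79), Gsk3a (0.78), Sema7a (0.78), Snn (0.77) and Nudt3 (0.77), over 98 libraries and 10652 genes. Kif5c is a kinesin motor of neurons, and Gsk3a a protein kinase. Cirbp ranked 1859 in that order. The 5 most like Cirbp were Slc25a28 (0.56), Dbp (0.55), Hmgb3 (0.55), the ribosomal protein Rpl4 (0.54) and Rab5c (0.53), and Rbm3 ranked 383. The libraries share mice and differ in depth, so these are descriptions. With log2 library total, r of these deviations was -0.0082 for Rbm3 and -0.21 for Cirbp in the plasma libraries, and -0.14 and -0.16 in the diet libraries.

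Regional levels did not choose the genes and were tested in both sets of control mice. The highest, lowest and neighbouring regions were set by the same means that were then compared. The p-values of those contrasts are not adjusted for that choice. In AL mice Rbm3 was highest in cerebellum at 135 ± 19.1 CPM (SD, n = 4) and olfactory bulb at 127 ± 6.40 CPM (SD, n = 4). It was lowest in caudate putamen, 2.59-fold below cerebellum (log2 difference 1.18, SE 0.13, edgeR adjusted p 5.49e-11). In PBS mice the order began and ended with the same regions, at 135 ± 15.4 (SD, n = 3), 111 ± 11.1 (SD, n = 4) and 48.4 ± 10.8 CPM (SD, n = 4). Cerebellum was 2.79-fold above caudate putamen there (log2 difference 1.32, SE 0.19, adjusted p 9.73e-08). In these cerebellum and caudate putamen contrasts 62.1% and 57.3% of all genes were called.

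Below those regions the AL order of Rbm3 was anterior hippocampus (94.9 CPM), visual cortex (78.5), motor cortex (74.7), posterior hippocampus (68.0), thalamus (63.9), corpus callosum (63.8), entorhinal cortex (62.0), choroid plexus (61.5), SVZ (59.2), medulla (58.3), hypothalamus (56.8) and pons (56.7). Of the 14 steps between neighbours in this order, 1 was called, that from olfactory bulb to anterior hippocampus (log2 difference 0.34, SE 0.13, edgeR adjusted p 0.0214). Without mouse 63, 66 or 69 it was 0 steps. In PBS mice the same step was the 1 called (0.44, SE 0.18, adjusted p 0.0387), and 0 were called with no filter, without choroid plexus, without libraries under 2 M or without mouse 72, 76 or 80. Between olfactory bulb and anterior hippocampus, 55.2% of all genes were called in AL and 49.7% in PBS mice. The other neighbours did not differ beyond the spread between mice. Liver, with its own composition of RNA, was at 40.9 ± 5.17 CPM in AL mice (SD, n = 4), below every brain region.

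Cirbp had another order. In AL mice it was highest in olfactory bulb at 197 ± 10.4 and hypothalamus at 194 ± 13.0 CPM (SD, n = 4 each). Next came SVZ (138 CPM), entorhinal cortex (138), visual cortex (136), cerebellum (127), thalamus (124), anterior hippocampus (120), posterior hippocampus (118), pons (110), corpus callosum (109), choroid plexus (107), motor cortex (107), caudate putamen (105) and medulla (94.8). Olfactory bulb lay 2.08-fold above medulla (log2 difference 0.94, SE 0.11, edgeR adjusted p 2.47e-10), where 66.9% of all genes were called. The step from hypothalamus to SVZ was the 1 called of 14 (log2 difference 0.44, SE 0.11, adjusted p 9.28e-04), and 3 were called with the mouse as a block. In the fit without the block, 44.3% of all genes were called between hypothalamus and SVZ. In PBS mice hypothalamus (163 ± 2.46 CPM, SD, n = 3) and olfactory bulb (158 ± 9.41 CPM, SD, n = 4) led, 1.89-fold above the lowest, corpus callosum, in the case of hypothalamus. The 1 called step there was another one, from olfactory bulb to cerebellum (log2 difference 0.36, SE 0.13, edgeR adjusted p 0.0186). Between those regions 48.6% of all genes were called. Liver Cirbp was at 21.7 ± 6.59 CPM in AL mice (SD, n = 4).

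Rbm3os had an order close to that of Rbm3. It was highest in cerebellum at 6.63 ± 0.951 CPM in AL (SD, n = 4) and 6.05 ± 0.642 CPM in PBS mice (SD, n = 3). It was lowest in hypothalamus at 2.32 ± 0.361 CPM in AL (SD, n = 4) and in caudate putamen at 2.42 ± 0.516 CPM in PBS mice (SD, n = 4). The log2 differences were 1.49 (SE 0.17, edgeR adjusted p 3.80e-10) and 1.15 (SE 0.20, adjusted p 6.27e-06). In these contrasts 61.8% and 57.3% of all genes were called. Of the 14 neighbour steps, 2 were called in AL mice, visual cortex to pons (adjusted p 0.0418) and choroid plexus to hypothalamus (adjusted p 0.0407), and 0 in PBS mice. With the mouse as a block the second was no longer called (adjusted p 0.0711). Without the block, 57.1% and 42.1% of all genes were called in these 2 steps of AL mice. Over the 15 region means, r with Rbm3 was 0.92 in AL and 0.94 in PBS mice. The shared exonic bases and libraries enter both values.

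The F test of region was called for all 3 genes in both sets of control mice, as for 98.1% of genes in AL and 96.1% in PBS mice. The adjusted p from edgeR was 1.82e-14 for Rbm3, 4.53e-11 for Cirbp and 6.73e-11 for Rbm3os in AL mice. In PBS mice they were 1.07e-07, 7.75e-08 and 6.92e-05. These fits treated the regions of a mouse as independent. With the mouse as a block, the adjusted p of the same F test was 1.24e-17, 1.98e-14 and 1.12e-12 in AL mice. In PBS mice it was 7.52e-15, 4.89e-10 and 3.93e-06 with the block. Over region means, AL and PBS mice had r 0.97 for Rbm3, 0.95 for Cirbp and 0.83 for Rbm3os. Rbm3 and Cirbp had r 0.36 in AL and 0.44 in PBS mice, with both genes from the same libraries.

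**Figure D5:**
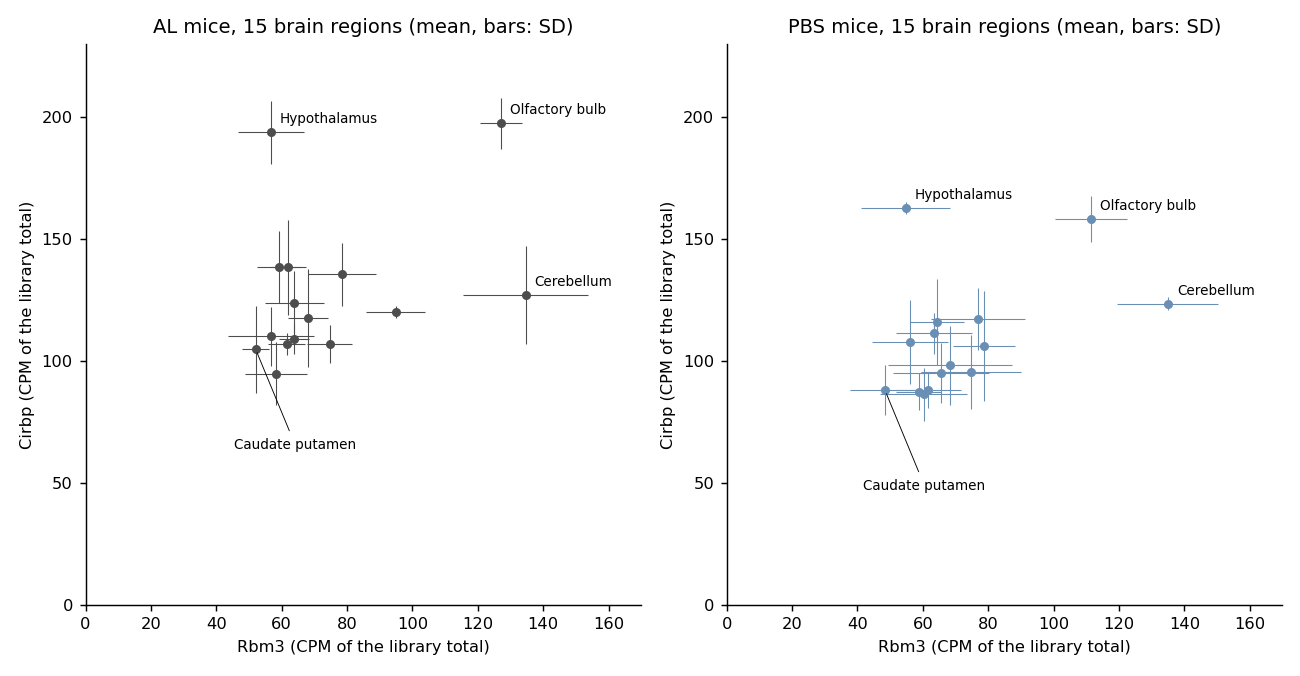
Mean Rbm3 (horizontal axis, CPM) against mean Cirbp (vertical axis, CPM) in the 15 brain regions of AL and PBS mice, with SD as bars. Hypothalamus lies high for Cirbp and low for Rbm3, cerebellum lies highest for Rbm3, and olfactory bulb is high for both.

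Hypothalamus and cerebellum, chosen after their values were seen, showed the 2 coding genes in opposite order. In AL mice hypothalamus was lower than cerebellum in Rbm3 by a log2 difference of -1.24 (SE 0.13, edgeR adjusted p 2.64e-11) and higher in Cirbp by 0.62 (SE 0.11, adjusted p 2.86e-06). In PBS mice the differences were -1.31 (SE 0.21, adjusted p 6.88e-07) and 0.40 (SE 0.14, adjusted p 0.0132). The log2 ratio of Rbm3 to Cirbp counts within a library was -1.79 ± 0.18 in hypothalamus and 0.084 ± 0.14 in cerebellum of AL mice (SD, n = 4 each). Both regions came from the same mice, and the difference within a mouse ran from -2.24 to -1.59. An exact permutation test that flips the sign of each mouse's difference, two-sided, gave p 0.125, the smallest that 4 mice allow. In PBS mice the ratio was -1.60 ± 0.33 and 0.12 ± 0.18 (SD, n = 3 each), and the difference within a mouse ran from -1.89 to -1.58. Its exact permutation p of 0.25 is the smallest that 3 mice allow, so neither set can pass 0.05 by this test. Of all genes, 61.8% were called between these regions in AL and 54.6% in PBS mice.

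The 5 genes most like Rbm3 over the 15 region means of AL mice were Ppp6r2 (r 0.94), Acin1 (0.94), Ddx46 (0.94), Zfp780b (0.93) and Cpeb4 (0.93), among 10646 genes. Acin1 and Ddx46 take part in RNA splicing, and Cpeb4 binds messenger RNAs. Cirbp ranked 3354 with r 0.22, taken here over means of log2 CPM with TMM scaling, where the 0.36 above is over log2 of mean CPM without it. The 5 most like Cirbp were Pgap1 (0.91), Exosc2 (0.87), Fndc3a (0.86), Tmem216 (0.85) and Fmo1 (0.83), where Exosc2 is a subunit of the RNA exosome. Of these 10 genes, 0 were called with restriction over the brain by limma, with log2 changes between -0.047 and 0.11. Likeness here is over 15 points from the same 4 mice.

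Reads of Rbm3os per 100 Rbm3 reads, summed over the brain of a mouse, were 5.30 ± 0.258 in PBS (SD, n = 4) and 5.12 ± 0.185 in YMP mice (SD, n = 3). The exact permutation test, two-sided, gave p 0.371, where 3 mice against 4 cannot go below 0.0286. Per mouse the ratio ran from 4.94 to 5.67 over both experiments. The ratio of reads counted for the 2 genes of this locus thus differed between groups by less than between mice of a group. Reads from the bases that the genes share cannot be assigned, so the proportion of the 2 transcripts is uncertain.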

How the data were processed

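RNA of dissected brain regions and liver was extracted with RNeasy and made into libraries with Smart-Seq2 and Nextera XT, which keep no strand, per the labels' protocols. The submitters' processing notes name Trim Galore 0.3.7, STAR 2.5.3a, DESeq2 and GRCm38, with no role given. The counting program and its annotation are not given in the sources used here. The authors deposited raw counts per gene, 21076 rows over 238 libraries, 537 of them at 0 in every library, and 0 per-sample columns were left unused.

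From these counts, CPM was taken over the plain library total. Fits used R 4.3.3 and edgeR 4.0.16 (quasi-likelihood test, TMM scaling, filterByExpr with minimum count 10 and total 15) within each region, and edgeR over all regions for region and interaction tests. Over the brain, limma 3.58.1 was run on 1 value per mouse, the coefficient of each mouse when log2 CPM, with a prior count of 2, was fitted to terms for region and for mouse. P-values were adjusted by Benjamini and Hochberg over all genes tested, with a threshold of 0.05. Exact permutation tests and 95% intervals are as named beside the values. The members, lists and tests were chosen with earlier results of these data known. The highest, lowest and neighbouring regions of the control mice were set by the means then compared. Besides the members, the text names the 5 genes with the highest r for each pattern and up to 4 genes per list by size of change, called genes first; further list genes (Hspa1a, Hspa1b) and the hypothalamus and cerebellum contrast were chosen after their values were seen.

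Replicates are separate mice. Mouse numbers pair regions of an animal and never treatments: libraries of the same mouse had a mean correlation of deviations of 0.040 in the diet and 0.072 in the plasma experiment, against -0.0049 and -0.012 between mice. Of 357 pairs of libraries within groups, compared over genes with at least 20 counts, the smallest chi-square per degree of freedom was 1.29 (median 9.31), so none were merged. Alternatives were RLE scaling, DESeq2 1.42.0, no filter, prior count 0.5, a mouse block, and leaving out each mouse, the choroid plexus or doubtful libraries. CPM on TMM-scaled totals for the overlap counts, and the region fits without doubtful libraries, were added after the data were seen. The fitting scripts were tested on simulated data.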

Additional observations from a re-analysis of the deposited data

Results flagged for a closer look

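A Dixon test of the highest and lowest sample in each group of 4 or 5 mice was applied to 126 groups of values of the 3 genes. It singled out 11, where chance singles out about 1 in 20 groups, or 6.3 here. Of these, 4 were PBS mouse 84 as the highest of its group. It was at 92.7 CPM for Rbm3 in anterior hippocampus (others 73.5 to 74.9) and at 97.8 CPM in motor cortex (others 65.6 to 68.0). Its value over the brain was 0.19 for Cirbp (others -0.030 to 0.0070) and 0.28 for Rbm3os (others -0.056 to -0.0033).

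Restricted mouse 67 was the lowest for Cirbp in entorhinal cortex, at 189 CPM (others 218 to 221), and over the brain, at 0.11 (others 0.30 to 0.36). Restricted mouse 65 was the highest for Cirbp in hypothalamus, at 314 CPM (others 261 to 267), and for Rbm3os in liver, at 4.28 CPM (others 2.30 to 2.66). Restricted mouse 64 was the highest for Cirbp in pons, at 259 CPM (others 150 to 173). Freely fed mouse 68 was the lowest for Rbm3 in cerebellum, at 106 CPM (others 143 to 147). PBS mouse 80 was the lowest for Cirbp in choroid plexus, at 77.2 CPM (others 90.7 to 92.2).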

How the results depend on the processing

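All 540 alternative values of the regional diet changes kept their sign, as did the brain and liver differences of the diet under every alternative run. DESeq2 called Rbm3 in 13 brain regions, Cirbp in 13 and Rbm3os in 1, against 6, 2 and 0 by edgeR. It gave a liver Rbm3 change of 0.68 past the threshold. The shares of all genes called by DESeq2 were not counted. Leaving out each mouse, edgeR called Rbm3 in 2 to 4 regions, with 2 without mouse 61, 63, 66 or 68. The cause of these differences was not tested. Liver Rbm3 ran from 0.59 to 0.78 with each mouse left out.

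Of the plasma values by region, 49 of the alternatives turned their sign and 389 did not. With each mouse left out, the number of regions in which the gene was higher ran from 0 to 10 for Rbm3, 0 to 6 for Cirbp and 0 to 5 for Rbm3os, highest without mouse 84. The Rbm3 difference over the brain ran from -0.15 to 0.0051. Ranges of the regional Rbm3 changes that crossed 0 were -0.14 to 0.034 in choroid plexus, -0.12 to 0.045 in anterior hippocampus, -0.29 to 0.11 in posterior hippocampus, -0.15 to 0.19 in hypothalamus, -0.062 to 0.084 in medulla, -0.073 to 0.15 in motor cortex, -0.031 to 0.088 in olfactory bulb, -0.28 to 0.14 in pons, -0.16 to 0.017 in thalamus and -0.14 to 0.12 in visual cortex. For Cirbp they were -0.19 to 0.30 in choroid plexus, -0.19 to 0.20 in corpus callosum, -0.19 to 0.032 in posterior hippocampus, -0.082 to 0.013 in hypothalamus, -0.18 to 0.057 in pons (0.00876 without libraries under 2 M), -0.067 to 0.082 in SVZ and -0.16 to 0.016 in thalamus. For Rbm3os they were -0.12 to 0.071 in caudate putamen, -0.099 to 0.086 in anterior hippocampus, -0.52 to 0.037 in hypothalamus, -0.069 to 0.036 in medulla, -0.26 to 0.015 in motor cortex, -0.19 to 0.073 in olfactory bulb, -0.33 to 0.13 in pons, -0.22 to 0.0097 in thalamus and -0.13 to 0.16 in visual cortex. Without mice 81 and 84, the mouse correlations were 0.29, -0.060 and -0.91.

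With the mouse as a replicate block in voom, the brain differences of the diet were 0.68 for Rbm3, 0.63 for Cirbp and 0.63 for Rbm3os, and those of plasma -0.10, -0.10 and -0.17, none of the plasma ones called. With the block, neighbouring regions of AL mice differed in 3 steps for Cirbp and 1 for Rbm3os. Cirbp steps in AL mice numbered 2 with no filter and 2 without choroid plexus. Rbm3 steps in PBS mice numbered 0 with no filter, without choroid plexus and without libraries under 2 M. With each mouse left out, the steps ran from 1 to 3 for Cirbp, 0 to 1 for Rbm3 and 0 to 1 for Rbm3os in AL mice, and from 0 to 1 for Cirbp and Rbm3 in PBS mice.

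Groups hold 2 to 5 mice, and Rbm3os has as few as 5 counts in a library, so small changes of it were not detectable at this depth. Liver and brain come from the same mice. No hour of sampling or batch is given, so neither was a term in a fit.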
